A study of Saccharomyces cerevisiae BY4743 with 24 samples.

Results

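Disomes and trisomes, the peaks of a polysome gradient that hold mRNAs with 2 and with 3 ribosomes, were compared in yeast growing at 30 °C. The comparison uses 6 of the 24 libraries of the series: 3 of the disome pool (pool 2) and 3 of the trisome pool (pool 3), as library names call them (di and tri), chosen by temperature and pool from the library titles and paired by replicate number, since pools of one number come from one sucrose gradient. The cells were Saccharomyces cerevisiae BY4743, a diploid laboratory strain, grown at 30 °C in complete synthetic medium with 2% raffinose and 0.005% glucose to an OD600 of 0.6. All libraries, heat-shocked ones included, come from cells mixed at harvest with chilled medium holding cycloheximide at 150 µg/mL, which stops elongating ribosomes on their mRNAs. Gradient fractions were joined into pools by absorbance peak and given spike-in RNA before extraction. Stranded SMART-Seq libraries followed, with rRNA left in.

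A cytoplasmic mRNA carries as many ribosomes as initiation loads before the first ones finish, so the number depends on how often ribosomes start, how fast they move and how long the coding sequence is. In a sucrose gradient mRNAs sediment mainly by that number. A very short coding sequence has little room and a short transit time, and yeast mRNAs for the smallest proteins are known to sit on few ribosomes; upstream open reading frames that hold back initiation on the main frame have a similar consequence. Comparing trisomes with disomes asks which mRNAs carry 3 ribosomes rather than 2 more or less often than the typical mRNA does.

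The values are TPM, rescaled here to a sum of 1000000 over the 5959 mRNAs of a library (mRNA TPM). They give the share of an mRNA among the mRNAs of its pool, so fewer molecules in a pool cannot be told apart from more of all the other mRNAs there. Each library was then centred on its median gene. Levels below are centred mRNA TPM in gradients 1, 2 and 3 in that order, and differences are trisome minus disome on the log2(mRNA TPM + 1) scale, so that 0 means that an mRNA moved like the median gene. Before centring the median gene stood 0.43 higher in trisomes.

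Read depth is unknown, because TPM keeps none. In the 6 libraries rRNA made up 96.1 to 96.6% of TPM and mRNA 3.26 to 3.77%, mRNAs of cytoplasmic ribosomal proteins took 54.8 to 64.5% of the mRNA, and 687 to 869 mRNAs were listed at 0. Replicates correlated across genes at 0.928 to 0.943 in disomes and 0.904 to 0.942 in trisomes. Of the genes that mark the strain, URA3, STE3, FUS1, MFA1 and MFA2 were listed at 0 in all 6 libraries, STE2, HO and MF(ALPHA)1 stayed at or under 3.19 mRNA TPM, and HIS3, of which the strain keeps a part, ran from 35.8 to 115. Gradient 1 stood apart. LEU2, deleted in BY4743, was at 42.5 and 70.5 mRNA TPM in its disomes and trisomes against 4.15 and 7.71 in gradient 2 and 0 in gradient 3, and its spike-ins summed to 37.6 and 31.0 TPM against 345 to 461 in the others. Results are therefore also given without gradient 1. Nothing in the labels says that the gradients came from separate cultures, so p-values measure the spread between these samples, which may be technical.

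Of 3183 mRNAs tested, 1 differed between trisomes and disomes at an adjusted p under 0.05 (0.0314%, limma with the gradient as a block and Benjamini-Hochberg adjustment), and it was lower in trisomes. This was RUB1, which encodes the ubiquitin-like modifier that is attached to cullins (YDR139C, R64 chromosome IV, 733618 to 733924). Its level was 1117, 1145 and 741 in disomes and 299.1, 326 and 201 in trisomes. All 3 trisome libraries lay below all 3 disome libraries, and the within-gradient differences of −1.90, −1.81 and −1.88 lay close together. The fitted difference was −1.86 ± 0.19 (SE; adjusted p = 0.0152, limma), 3.63-fold lower. The call did not hold when a gradient was left out: the adjusted p was 0.0686, 0.371 and 0.116 without gradients 1, 2 and 3, with differences of −1.86 to −1.91. At an unadjusted p under 0.05, 141 mRNAs were higher (4.43%) and 164 lower (5.15%).

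For the rest of the genes the sign in the 3 gradients serves as a description. Over all tested mRNAs 556 were higher in trisomes in every gradient (17.5%) and 543 lower in every gradient (17.1%), and these shares are the background for the counts below. 95.4% of the mRNAs lay within 1 log2 unit of 0. Beyond 1 unit the distribution was lopsided, with 118 mRNAs lower and 28 higher. Both sides hold mRNAs at 0 in some libraries, such as RRT15 (−4.60 ± 1.54) and SLO1 (2.60 ± 2.30), whose size depends on the pseudocount. RRT15 was at 0 in all 3 trisome libraries. The part of such mRNAs in the asymmetry was not tested. The median SE of a single gene was 0.26.

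The shortest coding sequences had the lowest trisome minus disome differences. Coding lengths were taken from the annotated span of each gene, and these classes leave out ribosomal protein genes and spans that are no multiple of 3; a span can hold introns. Of 281 mRNAs under 100 codons, 135 passed the filter on low values. Their median difference was −0.58, with −0.31, −0.49 and −0.73 in the 3 gradients, and 65 of the 135 were lower in every gradient while 12 were higher. The shares, 48.1% and 8.89%, stand beside the 17.1% and 17.5% over all tested mRNAs. These counts include 8 of the 65, and 16 of the 543, that were at 0 in both pools of a gradient, where the centring alone gives the sign. The −0.31 of gradient 1 and, to the digits shown, the −0.49 of gradient 2 are the values that the centring gives such an mRNA. Without all such mRNAs, a choice made after the values were seen, 57 of 122 were lower (46.7%) and 12 higher, with a median of −0.54 and −0.28, −0.55 and −0.74 in the 3 gradients, beside 16.7% lower over all 3149. None of the 135 passed the adjusted threshold in limma, and 37 were lower and 2 higher at an unadjusted p under 0.05.

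The other classes lay close to 0 and did not follow length in one direction. The median was −0.03 in the 234 genes tested of 100 to under 150 codons, 0.11 in the 264 genes tested of 150 to under 200 codons and 0.07 in the 588 genes tested of 200 to under 300 codons. It came to 0.02 at 300 to under 400 codons, −0.03 at 400 to under 600, −0.08 at 600 to under 1000 and −0.08 at 1000 and over. Of coding sequences with 100 to under 150 codons, 52 of 234 were higher in every gradient and 66 lower. This class was not uniform when split at the middle of its codon range, in bins set after the values were seen. The median of the 117 shorter ones was −0.16, with −0.12, −0.16 and −0.17 in the 3 gradients. Of these 117, 37 were lower in every gradient and 23 higher. The 117 longer ones had a median of 0.05, with 29 lower and 29 higher. From 150 to under 300 codons more were higher than lower. Of those with 150 to under 200 codons 68 of 264 were higher in every gradient and 29 lower, and of those with 200 to under 300 codons 126 of 588 were higher and 59 lower. Long mRNAs leaned slightly the other way: 93 of 391 mRNAs with 600 to under 1000 codons were lower in every gradient and 42 higher, and at 1000 codons and over the numbers were 32 and 17 of 130.

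**Figure D1:**
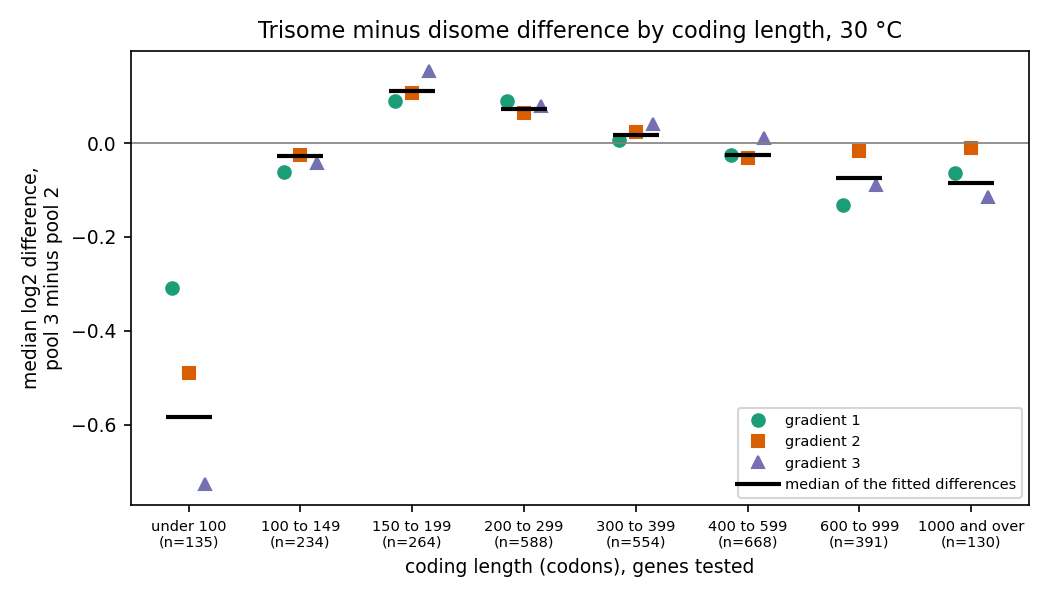
Median log2 difference between trisomes and disomes at 30 °C for 8 classes of coding length, with 1 point per gradient and a bar for the median of the fitted differences (n is the number of mRNAs tested, ribosomal protein genes left out). Only the class under 100 codons stands far from 0, at −0.31, −0.49 and −0.73 in gradients 1, 2 and 3. Here −0.31 and −0.49 are the values that centring alone gives an mRNA at 0 in both pools. Without such mRNAs the medians were −0.28, −0.55 and −0.74.

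Within the shortest class the smallest frames lay lowest in the main fit, in bins set after the values were seen. Of 120 mRNAs under 65 codons, 27 were tested. Their median was −1.13, with −0.48, −0.95 and −1.33 in the 3 gradients, and the median SE of a single gene was 1.54. Of these 27, 19 were lower in every gradient and 0 higher. The median was −0.87 in 42 mRNAs of 65 to 79 codons, of which 24 were lower in every gradient and 0 higher. Without mRNAs at 0 in both pools of a gradient the lower ones were 15 of 20 and 21 of 38. From 80 to 99 codons the median was −0.19, with 22 of 66 lower and 12 higher. With the filter and centring over all 24 libraries, the bins under 80 codons did not keep this order. At 30 °C the median was then −0.61 in 42 mRNAs under 65 codons and −0.65 in 54 of 65 to 79. It was −0.27 in 71 of 80 to 99 codons. In the plot of all tested mRNAs by span, the points below about 300 nt spread downwards. At longer spans most scatter around 0, but far lower points occur there too. The lowest difference was −3.04 at 100 to under 150 codons and −2.08 at 300 to under 400.

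**Figure D2:**
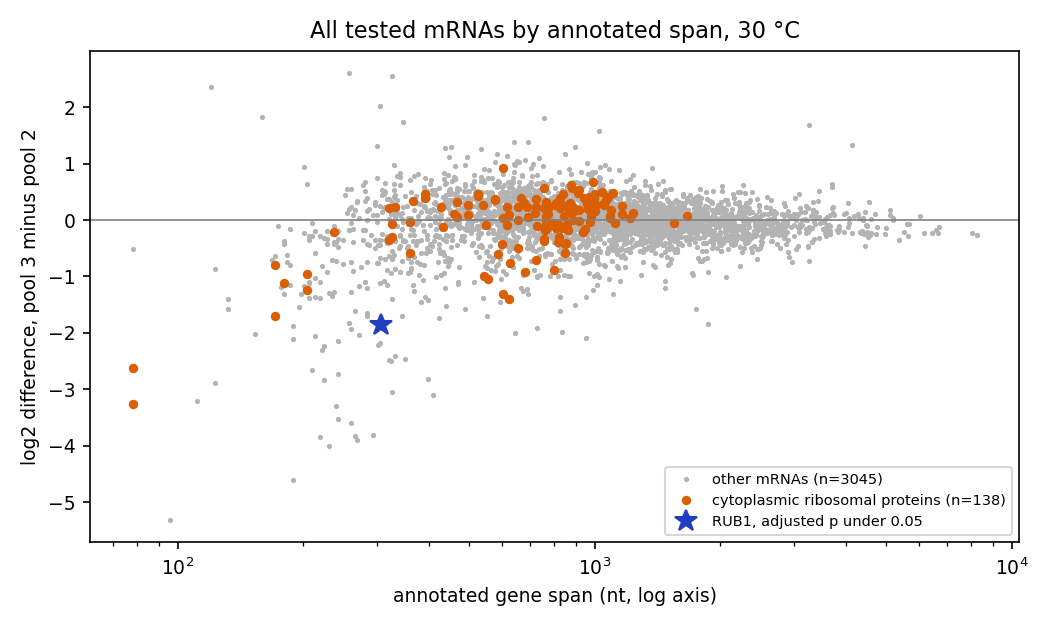
Log2 difference between trisomes and disomes (vertical axis) against the annotated gene span in nt (log axis) for the 3183 tested mRNAs at 30 °C. Cytoplasmic ribosomal protein mRNAs are in orange, and RUB1, the 1 mRNA with an adjusted p under 0.05, is the blue star at −1.86.

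Short mRNAs differ from long ones in how they are measured, and these values stand beside the result. In a library the lowest level above 0 among mRNAs under 200 nt was 68.6 to 160.1 mRNA TPM, against 0.0432 to 0.0937 among mRNAs of 1000 nt and over, so that levels of the shortest mRNAs come in large steps. Between 74.6% and 77.8% of the mRNAs under 200 nt were listed at 0. Of the 135 tested mRNAs under 100 codons 29 were at 0 in at least 1 of the 6 libraries. Among the other 106, 51 were lower in every gradient and 12 higher, with a median of −0.41. Among the 41 whose mean reached 1000 mRNA TPM, 26 were lower and 6 higher in every gradient, with a median of −0.71. The part of this coarse measurement in the result was not tested.

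The mRNAs of the smallest ribosomal protein stood furthest below 0 among tested mRNAs averaging 1000 mRNA TPM or more. RPL41A and RPL41B encode the same peptide of 25 residues, and reads of these near-identical genes can be split between them. RPL41A (R64 chromosome IV, 130407 to 130484) stood at 35909, 29479.6 and 22835 in disomes and 5227, 3031 and 1723 in trisomes, a difference of −3.26 ± 0.51 (adjusted p = 0.0858, limma). RPL41B (R64 chromosome IV, 221724 to 221801) stood at 46023, 27135 and 30264 in disomes and 6220.3, 5790.0 and 4469 in trisomes, a difference of −2.62 ± 0.67 (adjusted p = 0.24, limma). For both, each trisome library was several-fold below each disome library, but neither passed the threshold.

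RPS29A, RPS28A, RPS28B and RPL29 encode ribosomal proteins of 56 to 67 codons. RPS29A was at 9310.4, 10041 and 10369 in disomes and 4467, 2433 and 2627 in trisomes (−1.69 ± 0.31, adjusted p = 0.108, limma). RPS28A was at 33849, 30693 and 32677 and 16566, 11356 and 13697 (−1.24 ± 0.24), and its paralog RPS28B at 7366, 5626 and 5865 and 3909, 2738 and 3065 (−0.96 ± 0.15). RPL29 was at 14400.2, 16237 and 16653 and 8097, 5932 and 7974 (−1.12 ± 0.33). In all 4 the disome and trisome libraries did not overlap. RPS29B, the paralog of RPS29A and the most abundant small-subunit mRNA of the list, differed less, at 132953, 155530.3 and 179407 and 113493, 75893 and 81995 (−0.80 ± 0.26). RPL38, with 78 codons, was an exception: it stood at 65943, 83875 and 119584 in disomes and 90906, 58646 and 79105 in trisomes, and the libraries overlapped (−0.22 ± 0.31).

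RPL39, RPS30A and RPS30B also encode very small proteins, but introns lengthen their annotated spans. RPL39 was at 109193, 86909 and 102743 in disomes and 57123, 41977 and 50998 in trisomes (−1.0 ± 0.30). RPS30A was at 40448, 32125 and 36041 and 17463, 11779 and 12239 (−1.41 ± 0.26), and RPS30B at 29567, 23154 and 23460.4 and 11853, 10350.1 and 8659 (−1.31 ± 0.31). Here too no trisome library reached the lowest disome library. RPL43A, the third most abundant large-subunit mRNA, was at 20921, 28366 and 31826 and 18476, 11729 and 13013 (−0.91 ± 0.27).

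Ribosomal protein mRNAs with longer spans had medians above 0. By annotated span the median was −1.69 in the 5 genes under 66 codons and −0.96 in the 3 of 66 to 99, where 5 and 2 were lower in every gradient. It was 0.08 in 12 genes of 100 to under 150 codons, 0.29 in 10 of 150 to under 200, 0.18 in 32 of 200 to under 300 and 0.18 in 19 of 300 and over. Introns can add to the span in these classes, and RPS30B is counted at 200 to under 300 for that reason. At 100 to under 150 codons 6 of 12 were below 0, and at 300 and over 12 were higher in every gradient and 1 lower. The 57 genes whose span is no multiple of 3 had a median of 0.07, with 23 higher and 18 lower in every gradient. As lists, 37 of 81 tested members were higher and 18 lower in all 3 gradients (median 0.15) for the large subunit, and 22 of 57 tested members were higher and 15 lower in all 3 gradients (median 0.08) for the small subunit, so both directions occurred more often than over all tested mRNAs.

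RPS8B, which encodes a small-subunit protein of 200 codons (R64 chromosome V, 363100 to 363702), had the highest trisome excess of these mRNAs. It stood at 2479, 1639.6 and 1935 in disomes and 4214, 3484 and 3644 in trisomes. The libraries did not overlap, and the difference was 0.92 ± 0.13 (adjusted p = 0.0623, limma). With only genes of at least 600 nt in the fit it passed, at an adjusted p of 0.0135 (limma). RPS8A encodes the same protein, so the 2 genes can share reads.

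**Figure D3:**
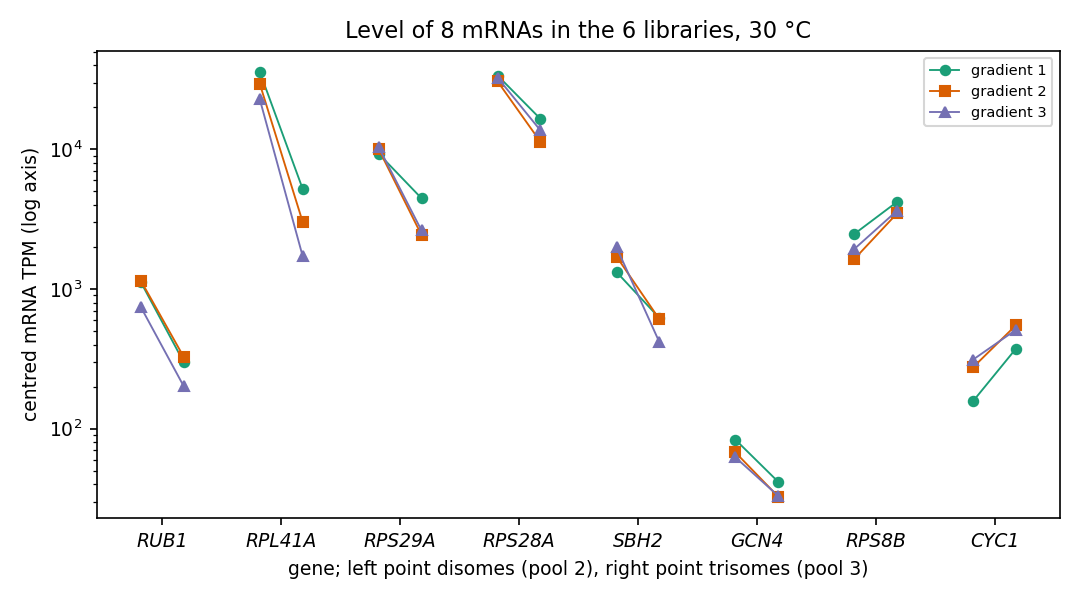
Level of 8 mRNAs in centred mRNA TPM (log axis) in the disome library (left point) and trisome library (right point) of each gradient, joined by a line. RUB1, RPL41A, RPS29A, RPS28A, SBH2 and GCN4 are lower and RPS8B and CYC1 higher in trisomes in all 3 gradients, with no overlap between the pools.

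Several abundant short mRNAs encode small mitochondrial proteins. Of the small subunits of the ATP synthase, ATP15 was at 11173, 10896 and 7137 in disomes and 1675, 3519.8 and 1849.5 in trisomes (−2.10 ± 0.44), ATP19 at 17876, 24782 and 29639 and 12005, 9937 and 10695 (−1.12 ± 0.34), and ATP18 at 8814, 13779.8 and 14139 and 4607, 7148 and 4972 (−1.13 ± 0.40). In each of these 3 the pools did not overlap. TIM11, a further ATP synthase subunit with 96 codons, differed less (−0.26 ± 0.14), and its pools overlapped. The cytochrome c oxidase subunits gave mixed values. COX9 was at 36249, 51808 and 51686 and 31828, 36198 and 34712 (−0.43 ± 0.23), COX7 at −0.75 ± 0.48 and COX8 at −0.42 ± 0.23, while COX12 was higher in every gradient (0.44 ± 0.20). Over the respiratory chain and ATP synthase as a list, 11 of 39 tested members were higher and 10 lower in all 3 gradients (median 0.06). MRPL39, a mitochondrial ribosomal protein of 70 codons, was at 7225, 8396 and 9803 in disomes and 3685, 2738 and 3489.9 in trisomes (−1.36 ± 0.32). TOM5, a small subunit of the outer-membrane import pore, was at 6704, 6153 and 7918 and 4355, 1643 and 675 (−2.03 ± 0.66). TOM6 and TOM7 of the same pore were at −1.16 ± 1.45 and −0.62 ± 1.97, and TOM7 was higher in trisomes in gradient 1. None of these passed the threshold (adjusted p of 0.16 or more, limma).

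SBH2, a beta subunit of the protein translocon of the endoplasmic reticulum (R64 chromosome V, 194273 to 194539), came closest to the threshold after RUB1, level with RPS8B. Its level was 1324, 1709 and 1989.9 in disomes and 620.4, 608 and 417 in trisomes, a difference of −1.61 ± 0.22 (adjusted p = 0.0623, limma). Without the gradient as a block it passed, with an adjusted p of 0.0256 (limma), and so it did without gradient 1, at 0.0357. Its paralog SBH1 was at 886, 787 and 913 and 914, 352 and 392 (−0.78 ± 0.29), and SSS1, the gamma subunit, at 5696, 4977 and 6598 and 3991, 4616 and 6655 (−0.20 ± 0.21); in both the pools overlapped. PMP1 and PMP2, proteolipids of the plasma membrane proton pump, were at −0.87 ± 0.51 and −1.58 ± 0.46, and PMP3, a small hydrophobic protein, at −0.71 ± 0.32. NOP10, a subunit of the box H/ACA small nucleolar ribonucleoproteins with 58 codons, was at 7697, 6943 and 9426 in disomes and 5165, 2889.7 and 2814 in trisomes (−1.19 ± 0.27).

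Small RNA-binding proteins of the Sm and LSm rings lay on both sides of 0, and these genes were picked after their values were seen. SMX2 was at 1011, 1099 and 875 in disomes and 359, 456 and 362 in trisomes (−1.34 ± 0.22, adjusted p = 0.0858, limma) and LSM6 at 3879, 2350.0 and 2317 and 593, 722 and 891 (−1.93 ± 0.36). SMX3 stood at −0.74 ± 0.20, while LSM5 was at −0.17 ± 0.23, LSM3 at 0.32 ± 0.26 and SME1 at 0.39 ± 0.21. These coding sequences have 77 to 94 codons.

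Under 100 codons, 12 mRNAs were higher in trisomes in every gradient: NHP6B, LSO2, COX12, STF2, FMP16, RTC6, QCR10, LSM3, TMA10, SEM1, YBR085C-A and NCW1. All have 83 codons or more. The largest of these differences was that of NHP6B, a chromatin protein, at 1417, 1571 and 2033 in disomes and 2086, 2648 and 3819 in trisomes (0.74 ± 0.22). SEM1, a small subunit of the proteasome lid with 89 codons, was at 1443, 1493 and 1538 and 1785, 1859 and 2024 (0.34 ± 0.36), with no overlap. QCR10, a subunit of respiratory complex III with 98 codons, was at 298, 462 and 591 and 426, 572 and 644 (0.31 ± 0.18), where the pools overlapped.

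By the rule for naming genes, the 10 largest differences of one sign in every gradient, at a mean of 50 mRNA TPM or more, are given without a call. On the lower side these were WIP1, TFB5, MAK31, TSC3, SIP18, RPL41A, OST4, OST5, MHF2 and CMI7, from −3.89 to −2.65. Of these, 8 were listed at 0 in at least 1 of the 6 libraries, so their size depends on the pseudocount, and their SE ran up to 2.35. OST4 was at 0 in both pools of gradient 2, so it was not lower there. TSC3, a small activator of serine palmitoyltransferase, was at 307, 339 and 333 in disomes and 0, 107 and 198.7 in trisomes. CMI7 had no value at 0: it was at 1489.7, 1025 and 1697 and 168, 365 and 169 (−2.65 ± 1.43).

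On the higher side they were ADE8, CYC1, RPS8B, YKL069W, DST1, CYC7, YAR1, QCR6, GCV3 and RTC3, from 0.98 to 0.78, with 109 to 309 codons. CYC1, the main cytochrome c, was at 158, 275 and 312 in disomes and 374, 551 and 511 in trisomes (0.98 ± 0.18, adjusted p = 0.108, limma). QCR6, a subunit of complex III, was at 1378, 2239.9 and 2342 and 2279.6, 4807 and 3449.9 (0.79 ± 0.17). DST1, the elongation factor TFIIS, was at 31.7, 63.2 and 29.7 and 70.1, 89.3 and 60.2 (0.85 ± 0.23), and YAR1, an ankyrin-repeat chaperone of a ribosomal protein, at 47.5, 51.1 and 71.4 and 83.4, 120.0 and 98.7 (0.82 ± 0.22). The pools did not overlap for CYC1, RPS8B, YKL069W and YAR1. They overlapped for the other 6.

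The remaining mRNAs with an adjusted p under 0.1 were PET117 and BIL1, lower in trisomes, and MRPL36, higher. PET117, a factor for cytochrome c oxidase assembly with 107 codons, was at 262, 320.5 and 280.2 in disomes and 147, 185 and 122 in trisomes (−0.94 ± 0.14). BIL1 was at 958, 916 and 943 and 359, 391 and 402 (−1.29 ± 0.21). MRPL36, a mitochondrial ribosomal protein with 177 codons, was at 219.6, 166 and 192 and 367, 269 and 301 (0.69 ± 0.12). The adjusted p was 0.0858 for each (limma).

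GCN4, the amino acid starvation regulator whose leader holds upstream open reading frames, was lower in trisomes although its coding sequence has 281 codons (R64 chromosome V, 138918 to 139763). It was at 83.3, 67.5 and 62.2 in disomes and 41.6, 32.5 and 32.9 in trisomes, without overlap, a difference of −0.98 ± 0.20 (adjusted p = 0.149, limma). Its mean level went down along the whole gradient, from 129 ± 0.893 in monosomes through 71.0 ± 11 in disomes and 35.7 ± 5.09 in trisomes to 28.1 ± 6.81 in the fourth pool (SD, n = 3), with the steps beside this one not tested here. HAC1, whose unspliced mRNA is held back in translation, stood at 27.4, 26.2 and 18.7 and 27.4, 17.8 and 12.7 (−0.37 ± 0.19), and TIF4631, which encodes eIF4G, at −0.27 ± 0.18. In the list of 13 mRNAs with regulatory upstream frames or blocked splicing, 0 of 8 tested members were higher and 4 lower in all 3 gradients (median −0.22).

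Among the other lists the ubiquitin family had the lowest median, and 1 of 10 tested members were higher and 5 lower in all 3 gradients (median −0.36). RUB1 was the 1 member past the threshold. HUB1 was at −0.82 ± 0.37, and the ubiquitin fusions RPL40A, RPL40B and RPS31 were at −0.31 ± 0.16, −0.37 ± 0.17 and 0.11 ± 0.14. Of plasma membrane pumps and transporters, 3 of 31 tested members were higher and 13 lower in all 3 gradients (median −0.22); the proton pump PMA1 was at 252, 349 and 369.8 in disomes and 213, 325 and 340.3 in trisomes (−0.15 ± 0.12). Fatty acid and sphingolipid enzymes had a median of −0.15, where 7 of 19 were lower and 2 higher, with the acetyl-CoA carboxylase ACC1 at −0.12 ± 0.13 and the synthase subunits FAS1 and FAS2 at −0.24 ± 0.13 and −0.07 ± 0.12. Cytosolic aminoacyl-tRNA synthetases had a median of −0.11, with 9 of 20 lower and 2 higher in every gradient and DPS1 at −0.16 ± 0.14.

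Histone mRNAs, with 103 to 134 codons for those named here, leaned towards trisomes, and 5 of 10 tested members were higher and 1 lower in all 3 gradients (median 0.19). HHF1 and HHF2, which encode the same histone H4 and can share reads, were at 0.51 ± 0.21 and 0.21 ± 0.24, and the variant HTZ1 was at 135, 119.9 and 116 in disomes and 178, 235 and 199.7 in trisomes (0.71 ± 0.24). HTB2 went against the list at −0.49 ± 0.23. For actin, tubulin and actin-binding proteins 10 of 27 tested members were higher and 5 lower in all 3 gradients (median 0.09), with tropomyosin TPM1 at 823, 758 and 871 and 1248, 1305 and 1148 (0.59 ± 0.14) and actin itself at 0.09 ± 0.14. For the proteasome 8 of 33 tested members were higher and 2 lower in all 3 gradients (median 0.03). The lists of histones, actin and the proteasome had 0 members past the threshold.

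The remaining lists had medians between −0.09 and 0.06, near the −0.01 of all tested mRNAs, and 0 members past the threshold. They are mitochondrial ribosomal proteins, initiation factors, elongation and termination factors, ribosome biogenesis, glycolysis, the respiratory chain, the TCA cycle, amino acid and ergosterol synthesis, cell wall proteins, the translocon and glycosylation enzymes, the vacuolar proton ATPase, cytosolic chaperones and RNA polymerase subunits. Abundant glycolytic mRNAs stood at much the same level in both pools. TDH3 was at 2126, 2119 and 2174 in disomes and 2153, 2257 and 2353 in trisomes (0.07 ± 0.19), PDC1 at −0.01 ± 0.14 and FBA1 at −0.01 ± 0.18. The elongation factors TEF1 and YEF3 were at −0.15 ± 0.17 and −0.09 ± 0.12, HYP2 (eIF5A) at 0.37 ± 0.13 and EFB1 at 0.32 ± 0.12. STM1, a protein that occupies idle ribosomes, was at 982, 1026 and 1013 and 1096, 1239 and 1209.6 (0.23 ± 0.14).

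**Figure D4:**
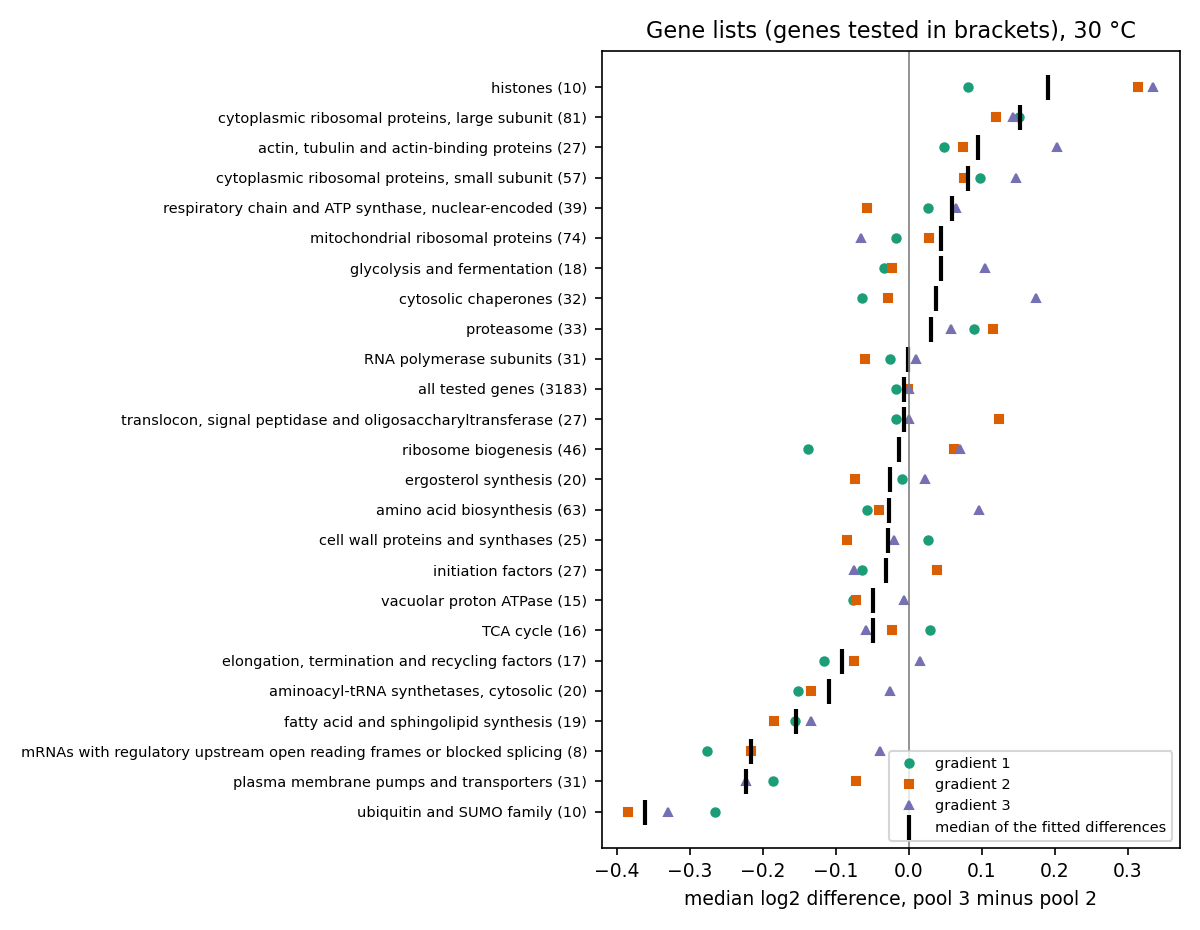
Median log2 difference between trisomes and disomes at 30 °C for each gene list, with 1 symbol per gradient and a bar for the median of the fitted differences (number of tested genes in brackets). Ubiquitin family members and plasma membrane transporters lie lowest, at −0.36 and −0.22, and histones highest, at 0.19.

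The mRNA of trisomes was longer on average. Weighted by mRNA TPM, the mean annotated span was 473, 460.2 and 454 nt in disomes and 519, 539 and 544 nt in trisomes, a mean gain of 71.6 ± 22.7 nt (SD, n = 3 gradients). It was larger in trisomes in 3 of 3 gradients, and without ribosomal protein mRNAs the gain was 73.7 ± 22.5 nt. Exact sign flips of the 3 pairs, two-sided, gave p = 0.25, the smallest that 3 pairs allow, so this design cannot reach 0.05. mRNAs under 100 codons, ribosomal protein mRNAs included, took 45.2 to 49.4% of the mRNA in disomes and 36.3 to 40.5% in trisomes.

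The amount of mRNA beside rRNA was much alike in the 2 pools. For 1000 TPM of rRNA there were 37.6, 35.8 and 34.2 TPM of mRNA in disomes and 39.2, 33.8 and 33.8 in trisomes, log2 differences of 0.06, −0.08 and −0.02 (mean −0.01 ± 0.07 SD; p = 0.75, exact sign flips, two-sided, n = 3). The value depends on which RNAs are summed. Against 25S rRNA alone the differences were −0.47, −0.25 and −0.11, and with ribosomal protein mRNAs left out they were 0.15, 0.14 and 0.16 over all rRNA, of opposite sign. The small rRNAs moved between libraries: 5S rRNA (RDN5-2), per 1000 TPM of mRNA, was 5587, 7904 and 7430.2 in disomes and 2118, 6554 and 6532 in trisomes. Of the untranslated RNAs, small nucleolar and nuclear RNAs were at 33.4 ± 8.82 in disomes and 31.2 ± 4.27 in trisomes per 1000 TPM of mRNA (SD, n = 3). SCR1, the RNA of the signal recognition particle, was at 6.29, 3.69 and 3.5 in disomes and 5.33, 2.31 and 3.35 in trisomes on the same scale, lower in trisomes in 3 of 3 gradients while the pools overlapped.

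The neighbouring steps of the gradient share libraries with this one. For the class under 100 codons the median was 0.22 from pool 1 (monosomes) to pool 2, −0.58 from pool 2 to pool 3 and −1.52 from pool 3 to pool 4. Its first step was above 0 in gradients 2 and 3 alone, at −0.02, 0.35 and 0.34 in gradients 1, 2 and 3. For 100 to under 150 codons the first step was −0.02, 0.31 and 0.23. In both classes −0.02 is the value that centring alone gives an mRNA at 0 in both pools. The next classes stood well below 0 at the last step alone. For 100 to under 150 codons the medians were 0.17, −0.03 and −1.0. For 150 to under 200 codons they were 0.15, 0.11 and −0.53. At 100 to under 150 codons the last step was −0.763, −1.002 and −1.108 in gradients 1, 2 and 3. The −1.108 of gradient 3 is the value that centring alone gives an mRNA at 0 in both pools. It therefore does not measure the size of a fall there. At 1000 codons and over the medians of these steps were −0.21, −0.08 and 0.25. For the 5 ribosomal protein genes under 66 codons the first step was already below 0, at −0.24. RUB1 had a mean level of 909.9 ± 169.6, 1001 ± 226, 275 ± 65.7 and 155 ± 19.7 in pools 1 to 4 (SD, n = 3). RPL41A was already lower in disomes than in monosomes, with 77887 ± 32263, 29408 ± 6537, 3327 ± 1770.4 and 1087 ± 851. RPS8B had its highest mean in trisomes, with 1293 ± 161, 2018 ± 426, 3781 ± 384 and 2230.1 ± 417.

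**Figure D5:**
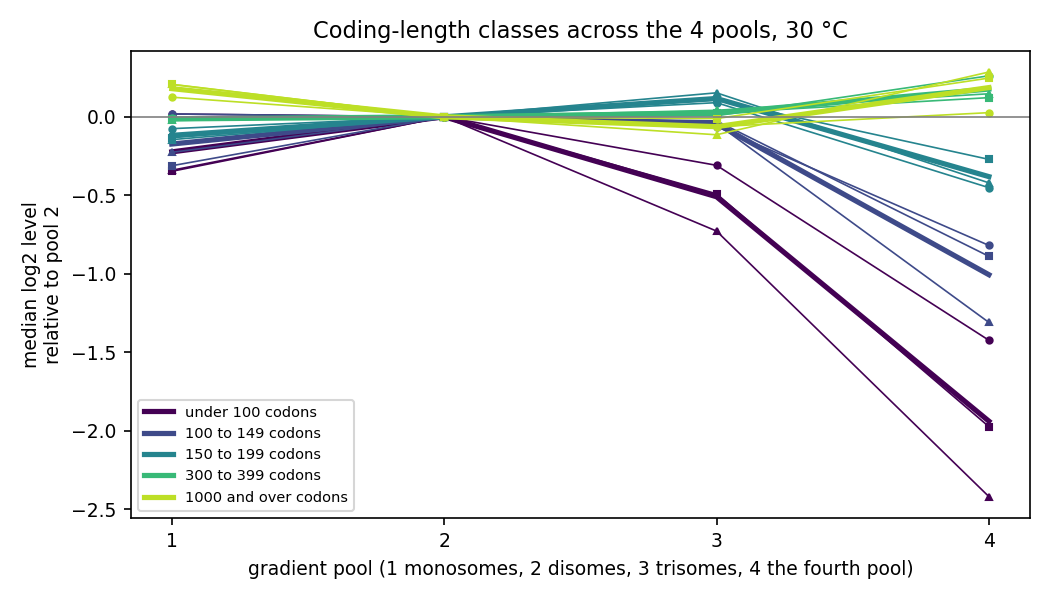
Median log2 level relative to pool 2 (vertical axis) in the 4 gradient pools at 30 °C for 5 classes of coding length, with thin lines for the 3 gradients and thick lines for their mean. The class under 100 codons leaves the others at pool 3, while the classes of 100 to under 200 codons leave at pool 4. At pool 3 its −0.31 and −0.49 in gradients 1 and 2 are the values that centring alone gives an mRNA at 0 in both pools.

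The same step was measured after 30 min at 42 °C in the other gradients, whose cells were also filtered and resuspended. The heat change of the trisome minus disome difference passed the threshold in 0 of 3949 mRNAs (0%; limma over all 24 libraries with each gradient as a block), and at an unadjusted p under 0.05 124 were higher and 80 lower. Among the 113 mRNAs under 100 codons whose mean reached 50 mRNA TPM at both temperatures, the median difference was −0.25, −0.42 and −0.66 in the gradients at 30 °C and −0.28, −0.12 and −0.08 in those at 42 °C. At 30 °C, the −0.25 and −0.42 of gradients 1 and 2 are the values that centring alone gives an mRNA at 0 in both pools. They therefore do not measure the size of a shift there. The ranges of the 2 temperatures overlap at their ends, and the class difference was not tested. RUB1 stood at −0.61 at 42 °C, a heat change of 1.18 ± 0.43 (adjusted p = 0.895, limma). RPS8B stood at −2.67 at 42 °C, with a heat change of −3.66 ± 2.20 (adjusted p = 0.997, limma). Ribosomal protein mRNAs together took only 0.956 to 4.51% of the mRNA in the disome and trisome libraries at 42 °C. With that large SE, no reversal is read from the RPS8B value. For GCN4 it was −0.09, with a heat change of 0.82 ± 0.71 (adjusted p = 0.997, limma).

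Without gradient 1 the direction of these results stayed and more mRNAs passed. With gradients 2 and 3 alone 1 mRNA was higher and 12 were lower of 2847 tested (limma, adjusted p under 0.05). The higher one was ZEO1, and among the lower ones were SBH2, RPL41A, RPL39, RPL43A, RPL43B, RPS28A, RPS28B, RPS29B, RPS30B, ATP19 and ELF1. The last of the 12 was YOL038C-A, with a span of 96 nt. It was at 0 in the trisomes of gradients 2 and 3, so the size of its difference depends on the pseudocount. In the gradient left out it went the other way, at 248 in disomes and 558 in trisomes. The class under 100 codons then lay 0.81 below all tested mRNAs, against 0.58 with all 3 gradients.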

How the data were processed

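Trim Galore 0.6.5, Salmon 1.9.0 and build R64 are named by the submitters' processing notes, without settings. The deposited table holds TPM for 6087 entries, 5959 of them mRNAs; 3 emptied lines were skipped. Symbols, spans and coordinates came from RefSeq's R64 table, which matched all 6082 gene IDs; the spans include introns, 216 are no multiple of 3, and protein lengths were not used here. The main fit took log2(mRNA TPM + 1) of all 12 libraries at 30 °C, centred on the median gene, for mRNAs that reached 10 mRNA TPM in 3 or more libraries (limma 3.58.1, R 4.3.3, trend, gradient as a block, 6 residual degrees of freedom, 2-sided, 5%). The block rests on the shared gradient. Deviations from the pool mean correlated between disomes and trisomes at 0.178 to 0.377 at the same number and −0.32 to 0.15 at different numbers. These deviations cancel out over each pool, so the ranges are not independent. Genes were named if past 5% and averaging 20 mRNA TPM or more, failing that as the 10 largest differences of one sign per direction, as the 3 most abundant of each list and the 2 of each class, or as a fixed set; those with an adjusted p under 0.1 and further short mRNAs were chosen after their values were seen. The comparison, the lists and the classes were chosen with earlier results of these data known. Alternatives changed the block, libraries, pseudocount, filter, scaling, variance model, threshold and gradients. Tables and figures used Python 3.11.15, numpy 2.4.6, pandas 2.3.3 and matplotlib 3.10.9.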

Additional observations from a re-analysis of the deposited data

How the results depend on the processing

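The count of mRNAs past the threshold depended on the setting, while no called difference changed sign. Against 0 higher and 1 lower, the numbers higher and lower were 0 and 2 with no replicate block for the pairing (2 in all), 0 and 9 with the 6 libraries alone, 0 and 0 with all 24 (at an unadjusted p under 0.05, 103 and 84), 0 and 2 with no filter, 2 and 13 (15 in all) with a filter of 50 mRNA TPM, 1 and 7 (8) with a mean of 20, 1 and 2 (3) with quantile normalization, 0 and 0 for a change of at least 0.5 and 1 and 0 at 600 nt and over. Scales without centring moved the median gene too, by 0.43 on the mRNA sum, 0.17 on TPM as deposited, 0.18 on 25S rRNA and 0.47 on spike-ins; there 254 and 10 (264), 142 and 14 (156), 0 and 0 and 21 and 1 (22) passed, so the split between higher and lower belongs to the scale. Leaving out 1 gradient gave 0 to 13 calls, 0 to 1 higher and 0 to 12 lower. RUB1 lost the call with all 24 libraries (adjusted p 0.106, limma), on the 25S and spike-in scales (0.0575 and 0.0529), for a change of at least 0.5 (0.0906) and without any 1 gradient. The heat change gave 0 calls with no replicate block and 0 to 2 without 1 gradient number.

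The class under 100 codons stayed below all tested mRNAs under each alternative: −0.58 became −0.33 with no filter, −0.24 on TPM as deposited, where a pseudocount of 1 weighs more, and −0.81 to −0.43 without 1 gradient. In alternatives added after seeing the data it was −0.70 at a mean of 1000 mRNA TPM, −0.67 with all mRNAs and −0.53 without mRNAs at 0 in both pools of a gradient. The mRNA to rRNA difference of −0.01 was 0.29 without the 20 most abundant mRNAs, 0.15 without ribosomal protein mRNAs, −0.27 with 25S and −0.22 with 18S rRNA alone and 0.0675 over spike-ins, so it has no settled sign; without 1 gradient it ran from −0.05 to 0.02. The gain in weighted length was 42.4 nt with weights capped at 1000 mRNA TPM and 62.4 to 84.3 nt without 1 gradient. With no replicate block, exact permutation of 3 against 3 gave p = 0.8 for the ratio and p = 0.1 for the length, the smallest it allows. Where no cause is given, it was not tested.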
